A study of Homo sapiens with 6 samples.

Results

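Mesenchymal genes and transcription factors of the epithelial-mesenchymal transition (EMT) were followed in HCT116, an established line from a human colorectal carcinoma with epithelial shape. The 10 genes VIM, FN1, SPARC, TGFBI, TNC, CDH2, ZEB1, ZEB2, SNAI1 and SNAI2 were taken by name from a list, and all 10 were found among the 20263 genes of the deposited table. The study sequenced poly(A) RNA from 3 wild type (WT) samples and 3 samples treated with CSE, which is read here as cigarette smoke extract because the series title names smoking. All 6 samples are the same line, with no further genetic change named. The labels used here state neither the dose nor how long it acted, nor what the WT samples received in its place. They also do not state whether replicates are separate cultures, so the spread behind each p-value may be technical.

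In EMT, epithelial cells loosen their junctions and take up the shape, motility and matrix of mesenchymal cells. The zinc-finger proteins of the SNAI and ZEB families drive it by binding E-boxes in epithelial genes such as CDH1 and repressing them, often downstream of TGF-beta. Vimentin, N-cadherin, fibronectin, tenascin-C and SPARC are the products by which the mesenchymal state is usually read, and in colorectal tumours much of their mRNA comes from the stroma, which a cell line lacks.

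The table is named TPM by its authors, but its values carry no length correction. Within a library 1 read was worth the same for every gene, between 0.0258 and 0.0266, and all 121578 values were whole reads at that step within 0.0055. The values are therefore given as CPM, reads scaled to the library's total. The libraries held 37567365 to 38730050 reads assigned to genes, so 1 CPM stands for 37.6 to 38.7 reads. Mitochondrially encoded genes took 27.0% to 30.2% of the reads in WT and 25.5% to 25.8% in CSE, and with these genes left out and the rest rescaled the log2 fold changes were 0.94 for SPARC, -0.51 for FN1 and -0.88 for SNAI2, with every call among the EMT and mesenchymal genes kept. CSE replicates 1 and 2 stood closest to each other: the median chi-square statistic over genes was 0.98 times that of sampling noise alone, against 3.02 and 3.46 for their pairs with CSE replicate 3 and 1.51 to 2.40 within WT. Their summed chi-square still exceeded sampling noise (p = 2.4e-310, counting error only), which does not show separate cultures; they were kept as the separate samples that the labels list. With these 2 averaged into 1 sample, SPARC, FN1 and SNAI2 had log2 fold changes of 0.94, -0.48 and -0.73.

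The epithelial markers checked the label. EPCAM lay between 306.08 and 359.85 CPM, CDH1 between 120.27 and 136.61 and KRT18 between 1464.70 and 1798.70, whereas CDX1 was listed at 0 and VIL1 at 0.05 or less in all 6 libraries. Of 11 colorectal epithelial markers, 4 stayed below 1 CPM in every library, and the list summed to 5087 to 5318 in WT and 5312 to 5618 in CSE. Of 9 fibroblast markers, 8 stayed below 1, with DCN at 0 throughout and COL1A2 and PDGFRA at 0.03 or less. Their sum of 44.01 to 46.09 in WT and 38.17 to 38.72 in CSE was nearly all COL1A1. All 6 endothelial markers stayed below 1, with sums of 1.19 to 1.69 and 1.47 to 1.72. Of 7 leukocyte markers 6 stayed below 1, and the sum of 19.16 to 19.81 in WT and 13.45 to 14.32 in CSE was mostly CD68, a lysosomal protein gene. In bulk RNA, fewer cells that express a gene and less of its RNA per cell cannot be told apart.

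Promoter sequence is shown for fibronectin, the matrix gene with the most reads among the 10, and for vimentin, the standard mesenchymal marker, to set it beside the values that follow. Of the 10 genes, 8 had 1 or more windows in the RefSeq table (GRCh38.p14), each holding the 250 bases before a RefSeq start, on the gene's strand. These starts are not those of GENCODE 29: the SPARC window lies wholly inside the GENCODE gene and 104 bases of the FN1 window do, so SPARC is not printed and FN1 is printed up to the GENCODE start, 146 bases. Motifs of 3 kinds were searched on both strands, and capitals mark the matches: the E-box of SNAI and ZEB proteins (CAGGTG or its complement CACCTG), the AP-1 site (TGANTCA) and the SP1 box (GGGCGG or its complement CCGCCC, where neighbouring matches may share bases).
FN1, chr2:215436173-215436318, minus strand: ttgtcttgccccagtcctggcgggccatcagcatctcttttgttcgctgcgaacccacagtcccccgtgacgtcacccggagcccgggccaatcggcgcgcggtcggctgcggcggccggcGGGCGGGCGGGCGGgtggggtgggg
VIM, chr10:17227991-17228240, plus strand: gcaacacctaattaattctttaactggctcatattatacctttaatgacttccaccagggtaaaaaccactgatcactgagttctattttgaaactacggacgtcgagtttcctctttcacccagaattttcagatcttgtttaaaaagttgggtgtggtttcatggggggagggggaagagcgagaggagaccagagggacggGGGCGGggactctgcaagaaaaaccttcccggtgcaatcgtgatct
The FN1 window held 6 SP1 boxes, 3 of them in the printed part, the VIM window 1 and the SPARC window 0. None of the 3 windows held the E-box or the AP-1 site as spelled. Over all 35116 windows of the same length, 42.6% held an SP1 box, 17.5% the E-box and 6.57% the AP-1 site. Among the other windows of these genes, the E-box stood once in 1 of the 7 ZEB1 windows, which lies before the GENCODE gene. It stood at 2 places in another ZEB1 window, which lies inside that gene. The AP-1 site stood in 1 of the 2 CDH2 windows, also inside the GENCODE gene. A match is a description of letters and does not show binding.

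Of the 10 genes, SPARC rose with CSE, FN1 and SNAI2 fell, and SNAI1 and ZEB1 did not pass the test. The other 5 (VIM, TNC, TGFBI, CDH2 and ZEB2) lay below the filter of at least 1 CPM in at least 3 libraries. The 5 genes above the filter reached 1 in all 6 libraries. Values were compared as log2(value + 1) with limma over all 12793 genes that passed the filter. At an adjusted p under 0.05, 50.1% of those genes were called in either direction, so 3 calls among 5 tested genes lie near the background and say nothing particular about these genes. Higher calls made up 24.5% and lower calls 25.6% of the genes tested. Among all calls 48.9% were higher, or 34.1% with mitochondrially encoded genes left out and 65.2% after a length correction. A called change of at least 1.5-fold on that scale was found for 2.89% of the genes tested. SPARC and SNAI2 were among these.

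The matrix genes came apart. SPARC encodes a calcium-binding matricellular glycoprotein that binds collagen and loosens cell contact with the matrix (ENSG00000113140, chromosome 5, 151661096 to 151687165, minus strand). It stood at 2.80, 2.80 and 2.74 CPM in WT replicates 1 to 3 and at 6.28, 6.20 and 6.27 in CSE replicates 1 to 3. Every CSE sample lay above every WT sample. The mean rose 2.25-fold, from 2.78 ± 0.0346 to 6.25 ± 0.0436 (SD, n = 3 each). The log2 fold change was 0.94 (SE 0.0744, limma adjusted p = 1.29e-09). On this log2(value + 1) scale only 20 of the 12793 genes, SPARC included, rose by as much. These values stand for 106, 107 and 106 reads in WT and 237, 233 and 243 in CSE. Their spread was smaller than counting error gives on average (variance 0.0165 times the mean in WT and 0.0116 times in CSE), so the SD understates the error. From the summed reads, 319 and 713, the ratio was 2.25 with a 95% exact interval of 1.97 to 2.58 that covers counting error only.

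FN1 encodes fibronectin, the fibrillar glycoprotein on which integrins anchor cells (ENSG00000115414, chromosome 2, 215360440 to 215436172, minus strand). Its values were 15.86, 16.79 and 15.96 in WT and 12.58, 11.98 and 10.51 in CSE. The groups did not overlap, and CSE replicate 3 was the lowest. FN1 fell 1.39-fold, from 16.2 ± 0.511 to 11.7 ± 1.07 (SD, n = 3 each; log2 fold change -0.44, SE 0.0640, limma adjusted p = 7.02e-06). Leaving out that sample gave a log2 fold change of -0.37. On the log2(value + 1) scale, falls of at least that of FN1 over all samples were seen for 515 of the 12793 genes.

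Among the transcription factors, SNAI2 fell while its paralog SNAI1 did not pass the test. SNAI2 encodes SLUG, a zinc-finger repressor of CDH1 (ENSG00000019549, chromosome 8, 48917604 to 48921740, minus strand). It stood at 2.91, 3.27 and 3.13 in WT and at 1.22, 1.41 and 1.63 in CSE. The lowest WT value was well above the highest CSE value. SNAI2 fell 2.19-fold, from 3.10 ± 0.182 to 1.42 ± 0.205 (SD, n = 3 each). On the log2 scale the change was -0.76 (SE 0.0936), with a limma adjusted p = 7.47e-07. The reads summed to 356 in WT and 162 in CSE, a ratio of 0.458 with a 95% exact counting interval of 0.378 to 0.553. On the log2(value + 1) scale, a fall as large as -0.76 was seen for 90 of the 12793 genes, SNAI2 included.

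SNAI1, which encodes SNAIL, the founding repressor of the family (ENSG00000124216, chromosome 20, 49982999 to 49988886, plus strand), was the most abundant of the 10 on either scale. Its values were 36.59, 33.68 and 34.53 in WT and 35.80, 37.27 and 36.53 in CSE, and the groups overlapped. The means were 34.9 ± 1.50 and 36.5 ± 0.735 (SD, n = 3 each; log2 fold change 0.063, SE 0.0478, limma adjusted p = 0.28). Its 95% interval ran from -0.036 to 0.16, a ratio of 0.976 to 1.12. Whether the responses of SNAI1 and SNAI2 differ was not tested. These are mRNA values, and SNAIL protein is known to be controlled through its breakdown, which they do not show.

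ZEB1 and ZEB2 encode large repressors with zinc fingers at both ends that bind paired E-boxes. ZEB1 (ENSG00000148516, chromosome 10, 31318495 to 31529814, plus strand) stood at 1.56, 1.46 and 1.70 in WT and at 1.27, 1.28 and 1.47 in CSE. The lowest WT value and the highest CSE value crossed. The means were 1.57 ± 0.121 and 1.34 ± 0.113 (SD, n = 3 each), and the log2 fold change was -0.14, with a 95% interval of -0.34 to 0.065 (SE 0.0974, limma adjusted p = 0.25). ZEB1 had 48 to 66 reads per library, and the test does not exclude a change within that interval. ZEB2 (ENSG00000169554, chromosome 2, 144364364 to 144524583, minus strand) had 0 reads in 5 libraries and 1 read in CSE replicate 3. A count of 0 allows up to 3 reads, or 0.0775 to 0.0799 CPM in these libraries, so no fold change is given.

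**Figure D1:**
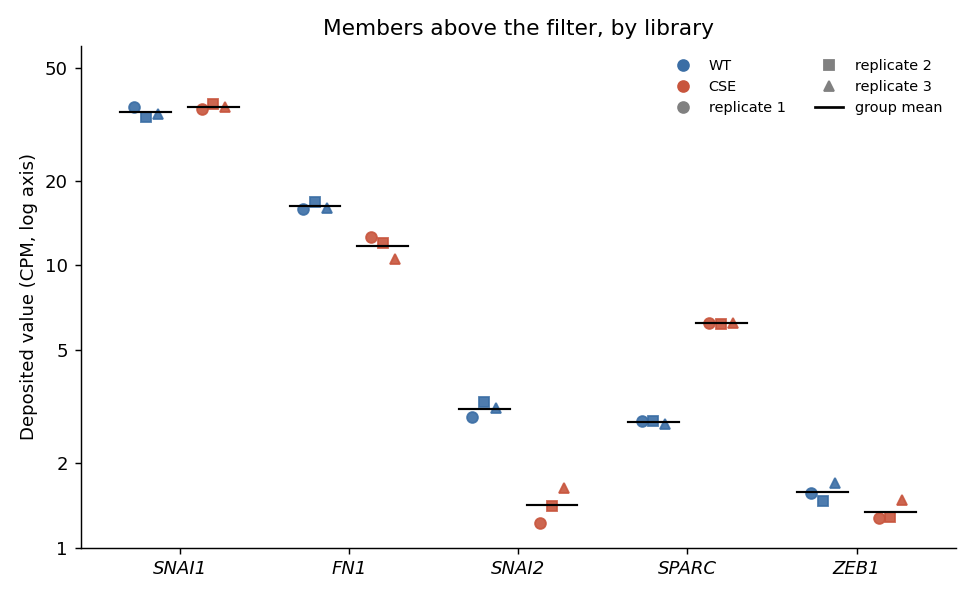
Deposited values of the 5 genes above the filter, in CPM on a log axis, for 3 WT (blue) and 3 CSE (red) libraries; marker shapes give the replicate and bars the group mean. SPARC lies higher in all 3 CSE libraries (6.20 to 6.28 against 2.74 to 2.80), FN1 and SNAI2 lie lower, and the groups of SNAI1 and ZEB1 overlap.

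The 5 genes below the filter held between 0 and 43 reads in a library. Vimentin was among them. For comparison, 13.8% of the 5064 genes that failed the filter but had a read had no overlap between the groups, against 57.4% of the genes tested. VIM, TNC and TGFBI did not overlap, and CDH2 and ZEB2 did.

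VIM encodes vimentin, the intermediate filament protein of mesenchymal cells (ENSG00000026025, chromosome 10, 17228259 to 17237593, plus strand). Its values were 0.69, 0.52 and 0.77 in WT and 0.95, 1.14 and 0.80 in CSE, from 26, 20, 30, 36, 43 and 31 reads. Only CSE replicate 2 passed 1 CPM, and the highest WT and lowest CSE library were 1 read apart. The means were 0.660 ± 0.128 and 0.963 ± 0.170 (SD, n = 3 each). The ratio of the summed reads was 1.46, with a 95% exact counting interval of 1.08 to 1.98 that leaves out the spread between samples. When limma was run on all genes without the filter, VIM did not pass (log2 fold change 0.24, SE 0.0897, limma adjusted p = 0.131). An antisense gene, VIM-AS1, overlaps VIM exons and has no row of its own here, and as the strandedness of the counting is not given, its reads cannot be told apart from those of VIM. The same holds for antisense genes over exons of SPARC, ZEB1, ZEB2 and CDH2.

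TNC encodes tenascin-C, a matrix protein of wounds and tumour stroma (ENSG00000041982, chromosome 9, 115019578 to 115118257, minus strand). It had 15, 11 and 12 reads in WT and 3, 2 and 4 in CSE, or 0.40, 0.29 and 0.31 against 0.08, 0.05 and 0.10 CPM. All CSE samples lay below all WT samples. The summed reads were 38 and 9, a 4.20-fold lower level in CSE with a 95% exact counting interval of 1.99 to 9.87. TNC passed in the run without the filter (log2 fold change -0.31, SE 0.038, limma adjusted p = 0.00803), where 23.9% of the 20263 genes were called. DELEC1, a gene on the other strand with a row of its own here, shares exon bases with TNC. The strandedness of the counting is not given, and the DELEC1 values were not set beside those of TNC. Whether part of these few reads comes from DELEC1 was not tested.

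TGFBI encodes a secreted integrin-binding protein that TGF-beta induces (ENSG00000120708, chromosome 5, 136028895 to 136063818, plus strand). It had 5 reads in each WT library and 1, 2 and 2 reads in CSE. The ratio of the sums, 15 to 5, was 2.98-fold lower in CSE with a 95% exact counting interval of 1.03 to 10.5. It passed in the run without the filter (log2 fold change -0.12, limma adjusted p = 0.00256), but the 3 equal WT counts hide the counting error, which that run does not model.

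CDH2 encodes N-cadherin, the adhesion molecule that replaces E-cadherin in the cadherin switch (ENSG00000170558, chromosome 18, 27950966 to 28177446, minus strand). It had 5, 4 and 2 reads in WT and 4, 2 and 6 in CSE. The groups overlapped, and the ratio of the sums, 1.10, had a 95% exact counting interval of 0.443 to 2.75. These few reads do not exclude a change within that interval. On the same samples CDH1, which encodes E-cadherin, was at 130 ± 1.65 in WT and 130 ± 8.81 CPM in CSE (SD, n = 3 each; log2 fold change -0.0034, limma adjusted p = 0.956).

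**Figure D2:**
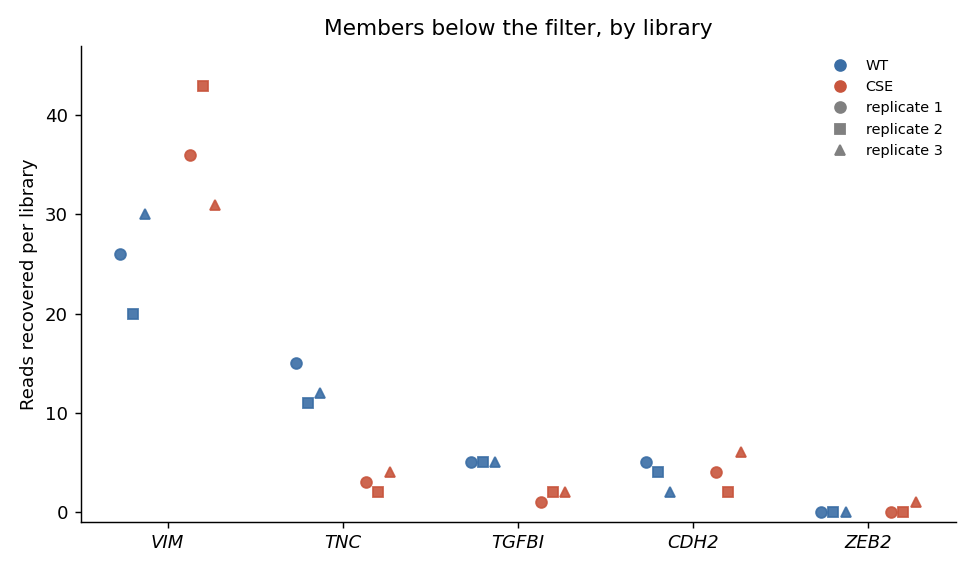
Reads recovered per library for the 5 genes below the filter, on a linear axis, for 3 WT (blue) and 3 CSE (red) libraries; marker shapes give the replicate. VIM has 20 to 30 reads in WT and 31 to 43 in CSE, TNC has 11 to 15 in WT and 2 to 4 in CSE, and ZEB2 has 1 read in all.

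To order the genes by level, values were divided by the merged exon length in GENCODE 29. Merged exons join all annotated transcripts of a gene, and are long for FN1 (17315 bases) and ZEB2 (25058). SNAI1 has 1 annotated transcript (1686 bases), so the levels of genes with several are low estimates beside that of SNAI1. In WT SNAI1 led with 20.7 ± 0.888 CPM per kilobase (SD, n = 3), followed by FN1 (0.936 ± 0.0295) and SNAI2 (0.915 ± 0.0535), whose samples overlapped. Next came SPARC (0.576 ± 0.00717), ZEB1 (0.182 ± 0.0139), VIM (0.128 ± 0.0248) and TNC (0.0346 ± 0.00608), each apart from its neighbour in every WT sample. CDH2 (0.0189 ± 0.00817) and TGFBI (0.0167) overlapped at the bottom, above ZEB2 at 0. In CSE the order changed behind SNAI1. SPARC moved to the next place with 1.29 ± 0.00902, ahead of FN1 (0.675 ± 0.0615) and SNAI2 (0.419 ± 0.0605), and VIM (0.187 ± 0.0330) and ZEB1 (0.155 ± 0.0130) overlapped. CDH2 (0.0209 ± 0.0102) then overlapped with TNC (0.00796 ± 0.00261), and TNC with TGFBI (0.00555 ± 0.00148).

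**Figure D3:**
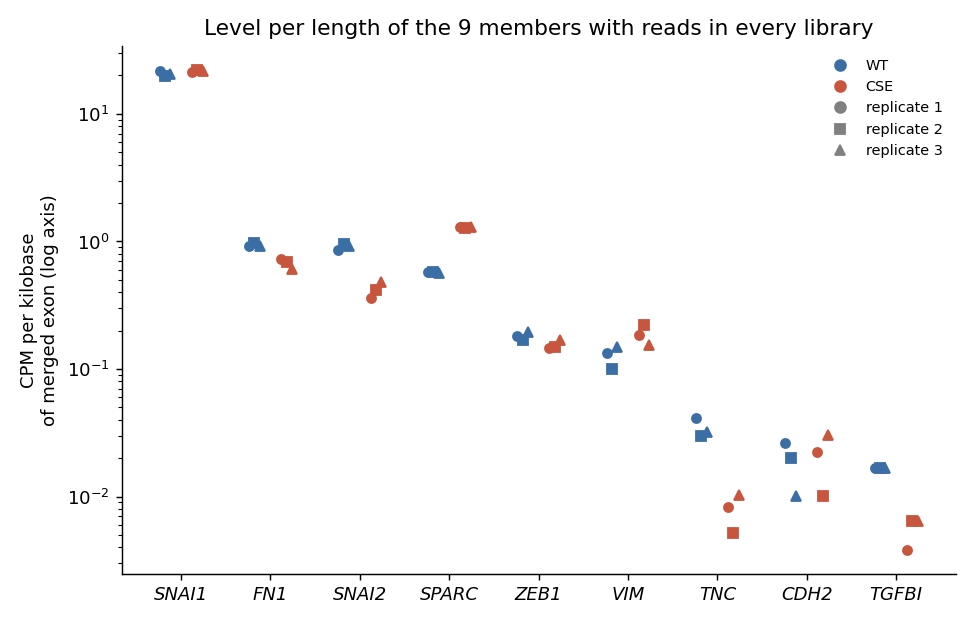
CPM per kilobase of merged exon on a log axis, for the 9 genes with reads in every library; ZEB2, with 1 read in all, is left out. Blue is WT, red is CSE, and marker shapes give the replicate. SNAI1 lies far above the rest, and SPARC passes FN1 and SNAI2 in CSE.

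Converted to TPM with the same lengths, SNAI1 was the only 1 of the 10 genes at 1 TPM or more in all 6 libraries (28.2 to 32.5 TPM). FN1 was at 1.27 to 1.37 TPM in WT and 0.902 to 1.07 in CSE. SNAI2 was above 1 in WT only (1.26 to 1.36 against 0.528 to 0.714), and SPARC in CSE only (1.89 to 1.93 against 0.783 to 0.848). The other 6 genes stayed below 1 TPM in every library, ZEB1 and VIM included. For values near 1 TPM, the side on which they fall depends on the merged lengths, and no other length was tried.

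The nearest profiles were found for the 3 called genes as the root-mean-square difference of 6 mean-centred log2(value + 1) values, a description over 6 libraries. The added 1 shrinks the changes of low genes such as SPARC and SNAI2, so a near profile need not have the same fold change. For SPARC they were PIF1, a DNA helicase gene (0.0428), and CCNB2, the gene of cyclin B2 (0.0439), against a median of 0.476 over all genes tested. PIF1 stood at 12.32, 11.77 and 10.87 CPM in WT and 22.88, 23.05 and 23.06 in CSE. For FN1 they were LTO1 (0.0217) and the chromatin remodeller subunit gene INO80D (0.0228), with a median of 0.237. For SNAI2, HLA-DRB1 is given (0.0671), with a median of 0.398. HLA-DRB1 stood at 14.01, 15.25 and 15.96 CPM in WT and 8.39, 8.41 and 8.70 in CSE.

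The 5 lists of related genes were counted in the same fit, with no test of a list. Over all 12793 genes the median log2 fold change was -0.0039, with 24.5% called higher and 25.6% called lower. The counts of each list were not tested against these shares. Among 17 other EMT transcription factors, 12 were tested, of which 1 rose, 2 fell and 9 did not pass (median 0.035). FOXQ1, a forkhead factor, fell 2.77-fold, from 16.55, 15.59 and 16.09 in WT to 5.16, 6.63 and 5.65 in CSE. Its log2 fold change was -1.33 (SE 0.0723) at a limma adjusted p = 2.88e-12. SNAI3, the remaining SNAI paralog, fell from 13.8 ± 0.568 to 11.6 ± 0.257 CPM (SD, n = 3 each; log2 fold change -0.23, limma adjusted p = 0.00237). FOXC1 rose from 27.6 to 35.1 (log2 fold change 0.34). TWIST1 was at 7.81 ± 0.447 and 8.66 ± 0.671 (SD, n = 3 each; limma adjusted p = 0.124), and GSC was listed at 0 throughout. FOXQ1 moved by more than any of the 5 tested EMT and mesenchymal genes described above.

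Of 23 TGF-beta ligands, receptors, SMADs and their regulators, all were tested, 5 rose and 7 fell (median -0.043). The ligand gene TGFB3 rose from 1.50 to 2.14 CPM (log2 fold change 0.33). The ligand gene TGFB2, counted among the 5, was at 0.82, 0.58 and 0.90 CPM in WT and at 1.22, 1.17 and 1.32 in CSE. It passed the filter through the CSE samples alone and lost its call without WT replicate 2 (limma adjusted p = 0.0759), so its count is no support for a rise. TGFB1 was at 100.1 ± 2.49 and 98.4 ± 0.699 (SD, n = 3 each; limma adjusted p = 0.618). Of the receptor genes, TGFBR2 rose from 26.4 to 31.9 (log2 fold change 0.26), and TGFBR3, the co-receptor betaglycan, fell from 11.1 to 6.90 (log2 fold change -0.62). PMEPA1, a TGF-beta target that binds SMADs and dampens the signal, fell from 5.31, 4.97 and 4.96 to 2.12, 2.32 and 2.07 (log2 fold change -0.94, SE 0.0807, limma adjusted p = 4.16e-09).

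Of 39 other mesenchymal and matrix genes, 14 lay below 1 CPM in all libraries, among them COL3A1, POSTN and CDH11. Of the 25 tested, 7 rose and 8 fell (median -0.057). On the log2(value + 1) scale the rises were led by CAV1, which encodes caveolin-1 (133.6 ± 1.18 to 191.7 ± 5.95, SD, n = 3 each; log2 fold change 0.52), and by the tropomyosin gene TPM2 (109.3 to 155.8; 0.51). As a ratio of means the collagen gene COL5A2 rose more than either, 1.57-fold from 1.47 to 2.31 CPM. The falls were led by ITGB1, the gene of the integrin beta-1 chain of fibronectin receptors (443.5 ± 5.32 to 322.9 ± 11.3, SD, n = 3 each; log2 fold change -0.46), and by the adhesion gene NCAM1 (19.8 to 14.6; -0.42).

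All 20 epithelial genes that EMT factors are known to repress were tested, and 8 rose, 3 fell and 9 did not pass (median 0.058). The keratin gene KRT19 (1840 to 2327 CPM, log2 fold change 0.34) and the plakoglobin gene JUP (233.8 to 292.8; 0.32) rose, while KRT18 (1769 to 1488; -0.25) and the claudin gene CLDN7 (314.5 to 264.6; -0.25) fell. Of 20 genes for SNAI1 turnover and co-repression, 19 were matched and tested, and 6 rose, 3 fell and 10 did not pass (median 0.031). The co-repressor genes HDAC1 (228.4 to 295.4; log2 fold change 0.37) and KDM1A (144.7 to 170.0; 0.23) rose. LOXL2, a lysyl oxidase that also stabilises SNAIL (92.7 to 77.6, log2 fold change -0.25), fell. So did FBXL14, a ubiquitin ligase subunit for SNAIL (20.29 to 17.65, log2 fold change -0.19). LOXL2 is also counted among the falls of the other mesenchymal and matrix genes. The FBXL14 call was lost in 8 of 17 alternative settings (limma adjusted p up to 0.30); without WT replicate 1, WT replicate 3 or CSE replicate 3 it was among those lost.

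**Figure D4:**
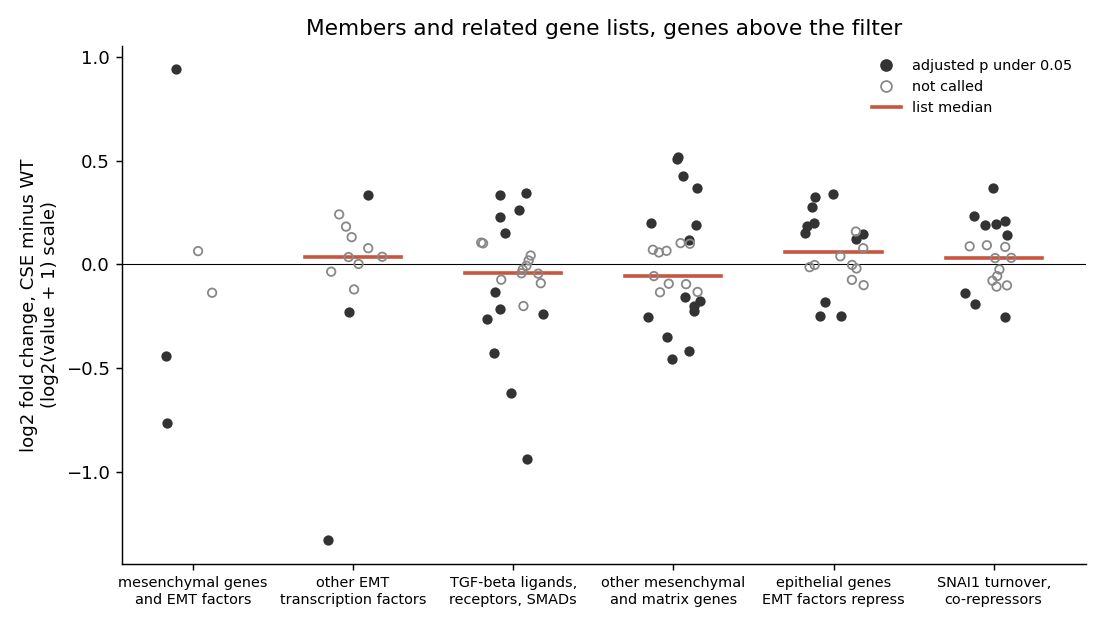
Log2 fold change of CSE minus WT on the log2(value + 1) scale for each gene above the filter, among the 5 tested EMT and mesenchymal genes and 5 related lists; filled points have a limma adjusted p under 0.05, open points do not, and red bars are list medians. Each list holds called genes on both sides of 0, with medians between -0.057 and 0.058, and FOXQ1 (-1.33) is the lowest point.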

How the data were processed

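HISAT2 2.0, Trimmomatic 0.36, bedtools 2.26.0, FastQC 0.11.2 and the build GRCh38 stand in the submitters' processing notes, without roles. The counter, the annotation and the use of strand are not given in the sources read for this work. The authors' deposited table is named TPM, but its values, to 2 decimals, proved to be CPM, counts scaled to the library's total. The design had assumed TPM; the same log-scale test was kept. Reads were recovered from the step of each library and used for depth and counting intervals only, and no count model was run. Of the sample columns, 0 were unmapped.

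Symbols matched 20148 of 20263 gene IDs. Genes that reached 1 CPM in 3 or more libraries were tested on log2(CPM + 1) with limma 3.58.1 in R 4.3.3 (empirical Bayes with trend, no covariate, Benjamini-Hochberg over all 12793 genes). Fold changes on this scale understate those of low genes. An exact permutation test of 3 against 3 cannot go below p = 0.1 and was not used. The procedure was also run on simulated data in which few genes changed and the mitochondrial share did not shift. The data here differ in both, so that run does not vouch for the calls.

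The genes and lists were chosen with earlier results of these data known. All 10 genes are named; from each list, the 2 called genes with the largest rise and the 2 with the largest fall; and the 2 nearest profiles of each called gene. A gene that this rule takes is not reported here. Genes named beyond this (markers, CDH1, TWIST1, TGFB1, TGFBR2, COL5A2 and genes listed at 0) were chosen after their values were seen. Alternatives were another pseudocount (0.1), no filter, a mean of at least 5, 3 scalings, 2 variance priors, the replicate block and leaving out each sample. Length-corrected TPM and the averaging of CSE replicates 1 and 2 were added after seeing the data.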

Additional observations from a re-analysis of the deposited data

How the results depend on the processing

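For FN1, SPARC, SNAI2, SNAI1 and ZEB1 the direction and the side of the threshold were kept in all 81 refits, 15 to 17 per gene. The log2 fold change ranged from 0.68 to 1.14 for SPARC, from -0.51 to -0.22 for FN1, from -1.08 to -0.51 for SNAI2, from 0.0072 to 0.12 for SNAI1 and from -0.22 to -0.092 for ZEB1. The values nearest to 0 for SPARC, FN1 and SNAI2 came with length-corrected TPM, where the added 1 weighs more and these 3 genes lay below 1 TPM in some libraries. The number of the 10 genes called was 3, against 5 without the filter, which tested all 10 and added TNC and TGFBI, and 1 with a mean of at least 5, which left 2 of them to test. It stayed at 3 when single samples were left out. Over all genes 6407 were called, and 5463 to 6573 without single samples. No setting moved the median of all genes by more than 0.1 on the log2 scale. The replicate numbers did not pair the samples (correlations of deviations -0.07, 0.02 and -0.09). With the replicate number as a block 6537 genes and the same 3 of the 10 were called, at -0.44 for FN1, 0.94 for SPARC and -0.76 for SNAI2. Depth limits VIM, TNC, TGFBI, CDH2 and ZEB2, which had at most 43 reads in a library.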
